A study of Mus musculus with 25 samples.

Results

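Snai1, Snai2, Twist1, Twist2, Zeb1, Zeb2, Prrx1 and Prrx2 encode transcription factors of mesenchymal cells and of the epithelial-mesenchymal transition (EMT). They were taken by symbol and made up 8 of the 55385 genes in the count files. All 8 were among the 15247 genes that passed a filter on low counts, several of them only through the 1 or 2 lines in which they were high. RNA-seq was performed on 25 untreated cultures at a confluency of 50%, with 5 murine melanoma lines and 5 replicates per line. The study compared high and intermediate metastatic lines (HIM-melanoma: WT31, B16F10 luc2 and RET) with low metastatic lines (LM-melanoma: D4M and HCmel12). WT31 carries the alleles Tyr∷NrasQ61K/° and INK4a−/−, B16F10 luc2 is a commercial line, RET came from mice with an MT/RET transgene, HCmel12 from a primary tumour of an HGF-CDK4(R24C) mouse and D4M from Tyr::CreER;BrafCA;Ptenlox/lox mice. B16F10 luc2, WT31 and RET grew in RPMI with 10% FCS, HCmel12 in the same base medium with further supplements and D4M in Advanced DMEM/F-12 with 5% FCS. Each genotype was represented by a single line, so that genotype and line cannot be told apart, nor can the medium in comparisons with D4M or HCmel12, and p-values measure the spread between cultures of these lines.

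Snai1 and Snai2 are zinc finger repressors that bind E-boxes in the promoters of epithelial genes. Zeb1 and Zeb2 bind the same kind of site through a zinc finger cluster at either end of the protein, and Twist1 and Twist2 are basic helix-loop-helix factors that act as dimers. Prrx1 and Prrx2 are paired-type homeodomain factors of embryonic mesenchyme. In the melanocyte lineage, Snai2 and Zeb2 belong to the normal programme of neural crest derived cells, whereas Zeb1 and Twist1 are known from dedifferentiated melanoma.

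The 5 lines fell into 3 patterns for these genes. D4M had all 8 factors at 0.915 CPM (counts per 1000000 counts of the library) or more in every library. WT31 had at least 279 CPM of Zeb2 and 147 CPM of Prrx1, Snai2, Twist2 and Prrx2 at lower levels, and few counts of Snai1 and Twist1. Its Zeb1, at 0.926 to 1.32 CPM, was low but also above 0.915 CPM in every library. B16F10 luc2, RET and HCmel12 had Zeb2 and Snai2, and HCmel12 also a low level of Snai1, while Twist1 and Twist2 were at 0 counts in all 15 libraries of these lines. Of the 8 factors, 5 were higher in D4M than in each of the 4 other lines (Snai1, Twist1, Twist2, Zeb1 and Prrx1), a pattern held by 20% of the 15247 genes tested. Zeb2 was lower in D4M than in each other line, as were 15.7% of the genes tested, though by less than 1 on the log2 scale against B16F10 luc2, RET and HCmel12. Zeb2 and Prrx2 were higher in WT31 than in each other line, as were 13.8% of the genes tested. In these bulk samples, fewer cells with a transcript and less of it per cell cannot be told apart.

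**Figure D1:**
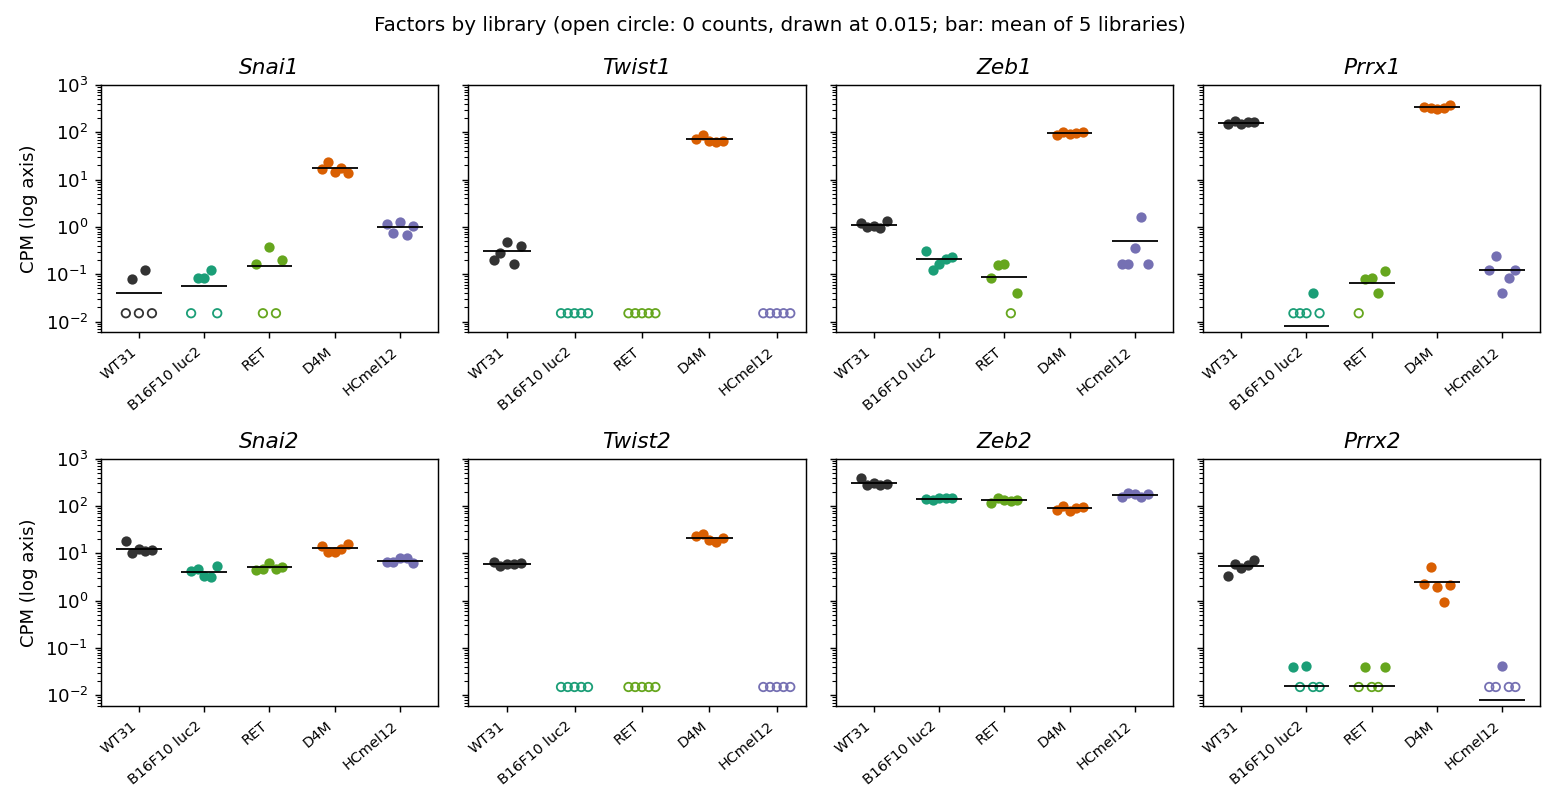
CPM of the 8 factors in each of the 25 libraries on a log axis, with the mean of the 5 libraries of a line as a bar and libraries at 0 counts as open circles. Snai2 and Zeb2 are present in all 5 lines, Twist1 reaches 63.2 to 88.6 CPM in D4M, and Twist2, Prrx1 and Prrx2 stand high in WT31 and D4M.

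Library totals were between 24199083 and 25843286 counts, so that a count of 3 over the 5 libraries of a line, taken as the floor, corresponded to about 0.024 CPM. Libraries of 1 line were more alike (correlation of log2 CPM from 0.9785) than those of different lines (up to 0.948). The labelled cell type was checked with 10 melanocyte lineage markers, whose summed level was 12800 to 31300 CPM in the libraries of WT31, B16F10 luc2, RET and HCmel12 and 23.9 to 74.9 CPM in D4M. All 10 were lower in D4M than in each other line. D4M replicate 1 was the highest of its line at 74.9 CPM. Markers of fibroblasts summed to 640 to 1250 CPM in D4M, with 9 of 10 above 3 counts and Lum at 0. In the other lines they summed to at most 107 CPM, with 5 or 6 of 10 above 3 counts. Dcn, Thy1 and Dpt were low in D4M too (0.301, 0.492 and 0.144 CPM), and Dcn was at 0.2 CPM in WT31 and 0.229 CPM in HCmel12. Leukocyte markers summed to 65.1 to 97.8 CPM in D4M, mostly Laptm5 (76.1 CPM), with Cd3e, Adgre1 and Tyrobp at 0, and to at most 29.3 CPM elsewhere. Endothelial markers reached 65.1 to 77.1 CPM in HCmel12 through Kdr and Egfl7, with Cdh5, Emcn and Cldn5 at 0, and at most 13.9 CPM elsewhere. Keratinocyte markers stayed at or under 4.91 CPM, and Schwann cell markers, many of which melanocytic cells share, were at 99.3 to 123 CPM in D4M and 177 to 1990 CPM in the other lines. The part of these differences in the results on the 8 factors was not tested.

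The 250 bases before the RefSeq transcription start (GRCm38.p6) are shown for Snai1, Twist1 and Twist2, which were all higher in D4M than in each other line and whose windows hold no annotated protein-coding transcript. A RefSeq entry was used for 6 of the 8 genes. The sequences run 5′ to 3′ on the strand of the gene, in lower case, and capitals mark CACCTG or its complement CAGGTG, the E-box form bound by Snail and ZEB factors.
Snai1 (chr2:167537945-167538194, + strand): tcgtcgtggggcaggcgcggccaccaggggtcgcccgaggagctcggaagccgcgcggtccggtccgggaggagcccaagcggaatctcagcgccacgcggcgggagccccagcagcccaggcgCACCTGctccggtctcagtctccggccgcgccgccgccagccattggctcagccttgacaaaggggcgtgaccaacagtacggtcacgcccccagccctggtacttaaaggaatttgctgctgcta
Twist1 (chr12:33957421-33957670, + strand): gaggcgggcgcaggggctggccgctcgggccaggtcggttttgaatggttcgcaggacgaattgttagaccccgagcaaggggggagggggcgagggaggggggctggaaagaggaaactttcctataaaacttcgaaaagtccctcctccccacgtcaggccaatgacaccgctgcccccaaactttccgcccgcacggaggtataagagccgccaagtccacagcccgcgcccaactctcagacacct
Twist2 (chr1:91801211-91801460, + strand): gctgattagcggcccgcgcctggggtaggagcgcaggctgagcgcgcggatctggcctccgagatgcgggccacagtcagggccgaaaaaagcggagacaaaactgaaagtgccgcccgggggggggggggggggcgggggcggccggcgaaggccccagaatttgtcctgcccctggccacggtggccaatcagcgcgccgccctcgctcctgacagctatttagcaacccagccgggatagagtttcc
Searched on both strands, this hexamer occurred once in the window of Snai1, at position -126 from the start, and was not in the windows of Twist1, Twist2, Prrx1 and Prrx2 or in the 4 windows listed for Zeb2. It was present in 17.2% of 32851 promoter windows of 250 bases. The broader pattern CANNTG, which includes the hexamer, was in 66.2% of those windows and, among these 6 genes, likewise in Snai1 alone. The windows of Snai1, Twist2 and Twist1 held 70%, 68.8% and 62.4% G and C. These matches describe letters and say nothing of binding.

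Snai1, a repressor of E-cadherin (Snai1: chr2:167538195-167542814, + strand), was highest in D4M. Its level was 17, 23.2, 14.3, 18 and 14.1 CPM in D4M replicates 1 to 5 and 1.15, 0.735, 1.3, 0.659 and 1.07 CPM in those of HCmel12. It was at 0 to 9 counts per library in RET, at 0 to 3 in B16F10 luc2 and at 0 to 3 in WT31. All D4M libraries were thus above all HCmel12 libraries, and these were above every library of HIM-melanoma. D4M exceeded HCmel12 by a log2 difference of 4.31 (SE 0.35, adjusted p = 1.9e-11, voom and limma). From counts summed over the libraries, relative to library totals and without the TMM scaling of the fit, the ratio of D4M to HCmel12 was 17.6 (95% counting interval 14.6 to 21.3). The ratio of HCmel12 to RET was 6.78 (4.11 to 11.8, log2 difference of RET against HCmel12 -3.45, SE 0.68, adjusted p = 7.6e-05). The 3 lines of HIM-melanoma, with 5, 7 and 18 counts in all in WT31, B16F10 luc2 and RET, were not distinguished from each other (adjusted p between 0.25 and 0.63, voom and limma), and their libraries overlapped. With DESeq2's Wald test all 8 factors were called between WT31 and RET, Snai1 among them.

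Snai2, a neural crest repressor that normal melanocytes also use (chr16:14705852-14709385, + strand), was present in every library at a narrower range of levels. D4M had 14.2, 10.9, 10.9, 12.2 and 15.5 CPM and WT31 had 17.8, 10.4, 12.1, 11.2 and 11.6 CPM. HCmel12 had 6.68, 6.46, 7.89, 7.91 and 6.2 CPM, RET 4.43, 4.66, 6.29, 4.69 and 5.19 CPM, and B16F10 luc2 4.18, 4.6, 3.3, 3.17 and 5.32 CPM. Every library of D4M and WT31 was above every library of the other lines. WT31 and D4M overlapped (12.6 ± 2.99 and 12.7 ± 2.05 CPM, SD, n = 5), with a log2 difference of -0.25 after TMM scaling (95% interval -0.51 to 0.01, adjusted p = 0.071). This difference was called with DESeq2's size factors (-0.28) and without WT31 replicate 1 (-0.38) or D4M replicate 2 or 3 (-0.31). With TPM it was 0.05 and not called. B16F10 luc2 and RET overlapped as well (-0.26, -0.65 to 0.13, adjusted p = 0.27). HCmel12 was higher than RET (log2 difference of RET against HCmel12 -0.5, SE 0.17, adjusted p = 0.011), although 1 RET library, replicate 3, was above the lowest HCmel12 library. The widest difference was that of D4M over B16F10 luc2 (log2 difference of B16F10 luc2 against D4M -1.79, SE 0.16, adjusted p = 2e-10).

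Twist1, a mesodermal helix-loop-helix factor (chr12:33957671-33959829, + strand), was measured at 70.7, 88.6, 66.7, 63.2 and 66.2 CPM in D4M. WT31 had 5, 7, 12, 4 and 10 counts, which gave 0.303 ± 0.133 CPM (SD, n = 5). No count was assigned in B16F10 luc2, RET or HCmel12. The groups of D4M and WT31 did not overlap, and D4M was higher than WT31 by a ratio of 234 (170 to 331, log2 difference of WT31 against D4M -8.1, SE 0.26, adjusted p = 9.7e-20). Against the floor of 3 counts over a line, D4M was at least 2890-fold higher than HCmel12, at least 2930-fold higher than B16F10 luc2 and at least 2940-fold higher than RET. WT31 was at least 12.4-fold higher than each of these 3 lines.

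Twist2, its closest relative (chr1:91801461-91848028, + strand), had 22.7, 25.7, 18.8, 17.2 and 21.2 CPM in D4M and 6.42, 5.48, 5.87, 6.03 and 6.19 CPM in WT31. The other lines were again at 0 counts. Thus WT31, which had few counts of Twist1, had 136 to 160 counts of Twist2 in each library. D4M was higher than WT31 by a ratio of 3.52 (3.24 to 3.82, log2 difference of WT31 against D4M -2.02, SE 0.1, adjusted p = 2.5e-16), and both groups were separate. Of the 31-base sequences of the Twist2 transcripts, 46% are shared with Gm29100, an annotated antisense gene that spans the start of Twist2 and its printed window, and which was at 0.447 CPM in WT31, 1.2 CPM in D4M and 0 in the other lines. Strandedness of the counting was not given in the sources used here, so that reads from the shared stretch cannot be told apart between these genes, and the share of Twist2 reads affected was not tested.

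Zeb1, a zinc finger homeobox repressor (chr18:5591860-5775467, + strand), was measured at 86.4, 102, 90.7, 97.8 and 103 CPM in D4M. WT31 had 1.23, 1.01, 1.05, 0.926 and 1.32 CPM. B16F10 luc2 had 3 to 8 counts per library and RET 0 to 4. HCmel12 had 4, 4, 9, 39.8 and 4 counts, so that replicate 4 stood apart from the others of its line. D4M was far above every other library. It exceeded WT31 by a ratio of 87 (73.5 to 104, log2 difference of WT31 against D4M -6.64, SE 0.25, adjusted p = 3.2e-18) and HCmel12 by a ratio of 192 (149 to 251, log2 difference 8.35, SE 0.36, adjusted p = 2.8e-17). WT31 was higher than B16F10 luc2 (2.27, SE 0.46, adjusted p = 8.2e-05) and RET (3.71, SE 0.54, adjusted p = 8.1e-07), and higher than HCmel12 (1.7, SE 0.43, adjusted p = 0.00097, ratio of summed counts 2.21, 1.62 to 3.03), whose replicate 4 lay above all WT31 libraries. The difference between B16F10 luc2 and HCmel12 was -0.57 (adjusted p = 0.34), and it was 0.01 without HCmel12 replicate 4 and -1.27 with DESeq2's Wald test (adjusted p = 0.031). Without that replicate HCmel12 had 21 counts, the ratio of D4M to HCmel12 was 446 (292 to 721) and that of WT31 to HCmel12 was 5.13 (3.23 to 8.55). In that replicate Twist1 was at 0 and Prrx1 at 2 counts, while its melanocyte marker sum of 18800 CPM was the highest of HCmel12. The antisense gene Gm10125, which overlaps the start of Zeb1, was at 1.64 CPM in D4M and 0 counts in HCmel12 replicate 4.

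Zeb2, the paralog that is active in differentiated melanocytes (chr2:44983632-45117395, − strand), was the factor with the smallest range. WT31 had 388, 283, 309, 279 and 296 CPM, HCmel12 157, 184, 178, 152 and 182 CPM, and B16F10 luc2 142, 132, 147, 148 and 146 CPM. RET had 113, 150, 135, 128 and 135 CPM and D4M 82.6, 101, 79.4, 89.5 and 96 CPM. D4M lay below and WT31 above all libraries of the other lines. WT31 was higher than D4M by a log2 difference of 1.56 (SE 0.08, adjusted p = 3.4e-15) and higher than HCmel12 by 0.81 (SE 0.08, adjusted p = 2e-09). RET was higher than D4M by 0.36 (SE 0.08, adjusted p = 0.00047). B16F10 luc2 and RET overlapped, with a difference of 0.16 (95% interval -0.01 to 0.34, adjusted p = 0.1), which was called when these lines alone were fitted (adjusted p = 0.038). HCmel12 was above both, with differences of -0.23 for B16F10 luc2 (adjusted p = 0.017) and -0.39 for RET (adjusted p = 0.00017) against it. These calls were lost when TPM was used in place of counts (adjusted p between 0.054 and 0.095 with a pseudocount of 1 or 0.1), and that for B16F10 luc2 also without a filter on low counts (adjusted p = 0.051). Zeb2os, an antisense transcript within the gene, had its lowest level in D4M too, at 1.04 CPM against 3.78 to 6 CPM in the other lines.

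Prrx1, a homeodomain factor of limb and craniofacial mesenchyme (chr1:163245119-163313710, − strand), had the widest range. D4M had 344, 320, 305, 325 and 378 CPM and WT31 had 151, 170, 147, 165 and 161 CPM. In the other 15 libraries it was at 0 to 6 counts, with 1 count in all of B16F10 luc2, 8 in RET and 15 in HCmel12. D4M and WT31 did not overlap. The ratio of D4M to WT31 was 2.11 (2.07 to 2.14, log2 difference of WT31 against D4M -1.3, SE 0.06, adjusted p = 7.2e-16), and the ratio of WT31 to HCmel12 was 1290 (782 to 2310). Prrx1 was called lower in B16F10 luc2 than in each other line, as were 6.83% of the genes tested, but the comparison with RET rested on 1 against 8 counts (ratio 7.98, 1.07 to 354, adjusted p = 0.037), and their libraries overlapped. The call against RET was lost without a filter on low counts and with TPM.

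Prrx2, its paralog (chr2:30834972-30881251, + strand), was the only member besides Zeb2 that was higher in WT31 than in D4M. WT31 had 3.27, 6, 4.81, 5.8 and 7.12 CPM and D4M 2.23, 5.08, 1.91, 0.915 and 2.14 CPM. The groups overlapped, since D4M replicate 2 was above 2 of the WT31 libraries. The log2 difference was 1.07 (SE 0.27, adjusted p = 0.00088). The coefficient of variation of Prrx2 was 63.4% in D4M, where the other 7 factors had 7.4% to 21.3%. B16F10 luc2, RET and HCmel12 held 2, 2 and 1 counts in all.

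Between pairs of lines, the number of the 8 factors called can be read only against the share of all genes called, since most genes differed. WT31 differed from B16F10 luc2 in 7 of the factors (72.8% of all genes tested were called), from RET in 7 (73.2%), from D4M in 7 (76.1%) and from HCmel12 in 8 (70.4%). D4M differed from B16F10 luc2 in 8 (77.7%), from RET in 8 (77.1%) and from HCmel12 in 8 (72.5%). HCmel12 differed from B16F10 luc2 in 4 (69.1%) and from RET in 4 (67.2%). B16F10 luc2 and RET differed in 1 factor, Prrx1 (51.5%). That number was 0 without a filter on low counts and with TPM, 2 with the replicate block, and 0 to 2 with single libraries left out. The 7 factors called between WT31 and B16F10 luc2 were all higher in WT31, and so were the 7 called between WT31 and RET. Against D4M, WT31 was lower in 5 factors and higher in Zeb2 and Prrx2. These comparisons share lines and are not independent of each other.

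**Figure D2:**
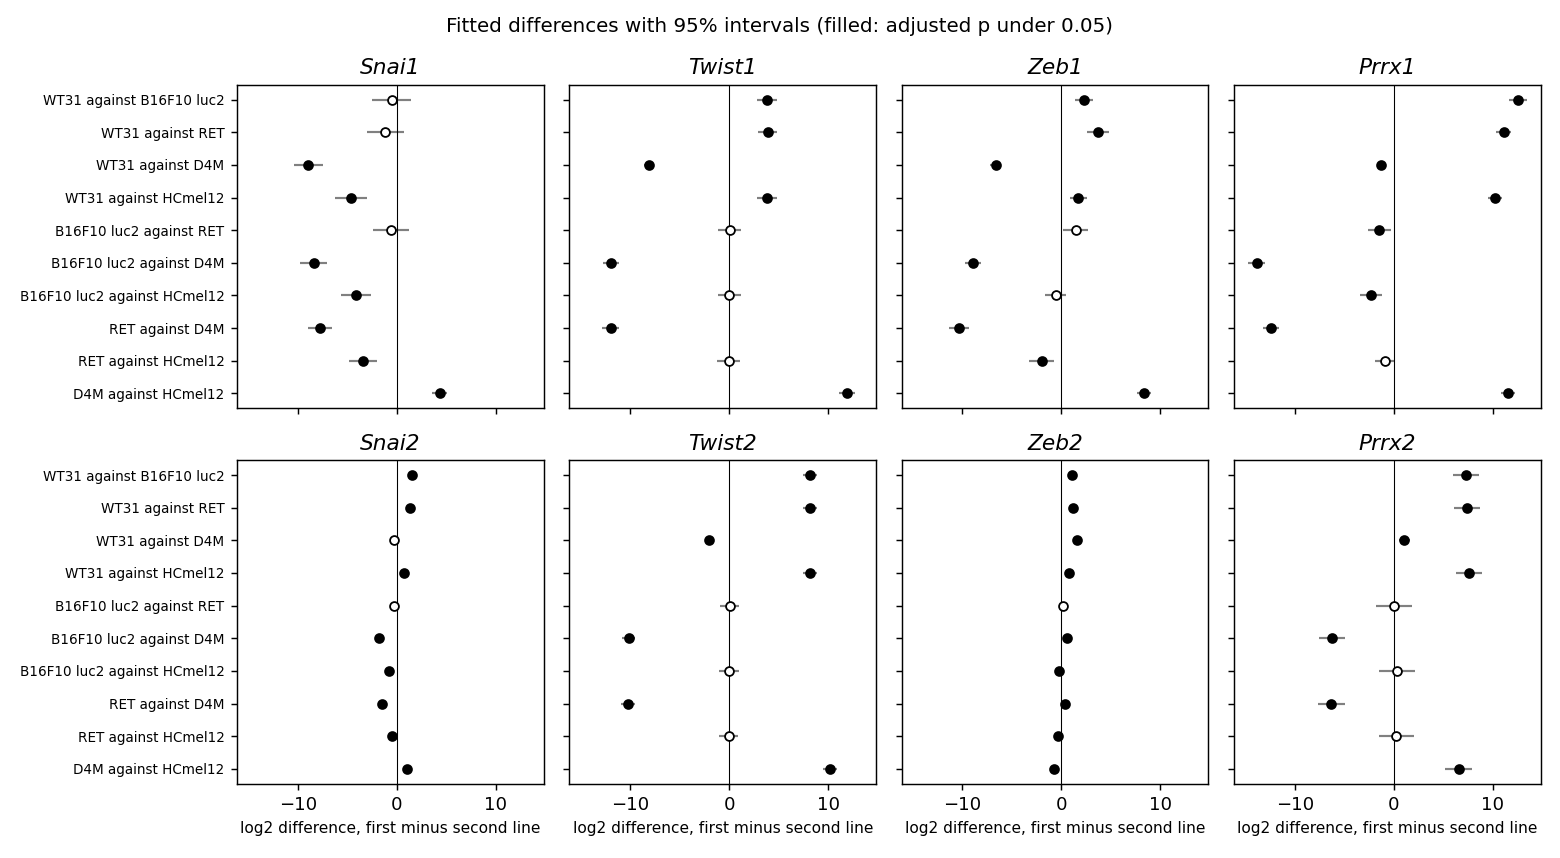
Fitted log2 differences of the 8 factors for the 10 pairs of lines (first minus second line) with 95% intervals, where filled points have an adjusted p under 0.05. Snai2 and Zeb2 stay within 1.79 of 0, while differences of Snai1, Twist1, Twist2, Zeb1, Prrx1 and Prrx2 against a line at or near 0 counts depend on the prior count of the fit and are not bounds.

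The differences were also set against those of all genes, by the widest difference between any 2 line means. It was 13.85 on the log2 scale for Prrx1, a value larger than in 99.8% of the genes tested. Twist1 (11.98), Zeb1 (10.37) and Twist2 (10.22) were above 97.3% of the genes or more, Snai1 (8.94) above 95.2% and Prrx2 (7.63) above 92.1%. Snai2 (1.79) and Zeb2 (1.56) were close to the median of all genes, 1.41, and above 58% and 53.8% of them. The values of Snai1, Twist1, Twist2, Zeb1, Prrx1 and Prrx2 rest on lines at or near 0 counts and depend on the prior count. Several of these genes passed the filter only through the lines in which they were high, which favours a wide range. Their ranks are therefore a description only.

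**Figure D3:**
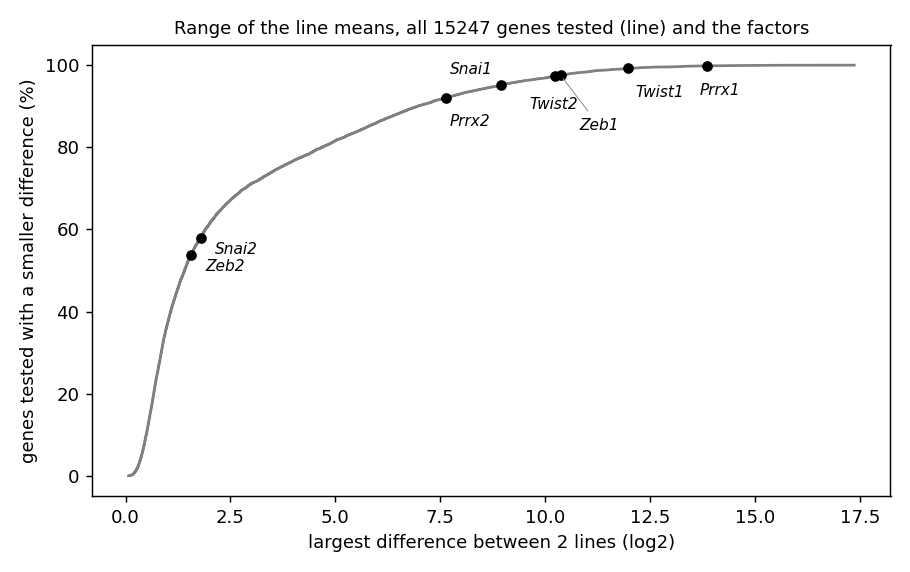
Cumulative share of the 15247 genes tested (vertical axis, %) by the largest log2 difference between 2 line means (horizontal axis), with the 8 factors as points. Zeb2 and Snai2 sit near the middle of the distribution and the other 6 factors above 92.1% of it or more. The values of these 6 depend on the prior count.

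HIM-melanoma and LM-melanoma were compared by requiring 1 direction in all 6 pairs of lines. Snai1 was the one factor that met this, lower in each HIM line than in either LM line, as were 6.4% of the genes tested. The mean was 0.0402, 0.0576 and 0.146 CPM in WT31, B16F10 luc2 and RET, 0.984 CPM in HCmel12 and 17.3 CPM in D4M. Twist1, Twist2, Zeb1 and Prrx1 were called in opposite directions within this grouping, since WT31 was below D4M and above HCmel12 in each of them. In Zeb2 and Prrx2 WT31 was above both D4M and HCmel12. Snai2 was called in opposite directions against HCmel12, higher in WT31 (log2 difference 0.77) and lower in B16F10 luc2 (-0.76) and RET (-0.5).

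Levels of different factors were compared as TPM, which corrects for transcript length, in 24 libraries. The TPM of D4M replicate 1 were not used here. In D4M the order was Prrx1 (130 ± 18.1 TPM, SD, n = 4), Twist1 (70.7 ± 11.2), Zeb1 (30.4 ± 3.23), Twist2 (26 ± 4.67), Zeb2 (23.5 ± 2.32), Snai1 (17.3 ± 4.06), Snai2 (9.65 ± 1.87) and Prrx2 (3.31 ± 2.35). The range of Twist2 (21.3 to 31.9) overlapped those of Zeb1 and Zeb2, and the ranges of Zeb2 and Twist2 overlapped that of Snai1, while the other neighbours in this order were separate. In WT31 Zeb2 (80.4 ± 10.8 TPM, n = 5) and Prrx1 (61.9 ± 4.19) were followed by Snai2 (10.1 ± 2.41), Twist2 (7.72 ± 0.509) and Prrx2 (7.49 ± 1.8), and the ranges of these last 3 met or overlapped. In HCmel12, B16F10 luc2 and RET, Zeb2 had 42.3 ± 4.24, 37.1 ± 2.22 and 36.6 ± 4.89 TPM and Snai2 had 5.16 ± 0.564, 3.15 ± 0.764 and 3.73 ± 0.609 TPM. The 8 factors summed to 310 ± 31.5 TPM in D4M and 169 ± 9.59 in WT31, and to 40.4 ± 2.32, 40.5 ± 5.29 and 48.6 ± 4.25 in B16F10 luc2, RET and HCmel12. Zeb2 made up 91.8%, 90.2% and 86.9% of this sum in B16F10 luc2, RET and HCmel12, 47.6% in WT31 and 7.57% in D4M, where Prrx1 (41.8%) and Twist1 (22.8%) had the largest shares.

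**Figure D4:**
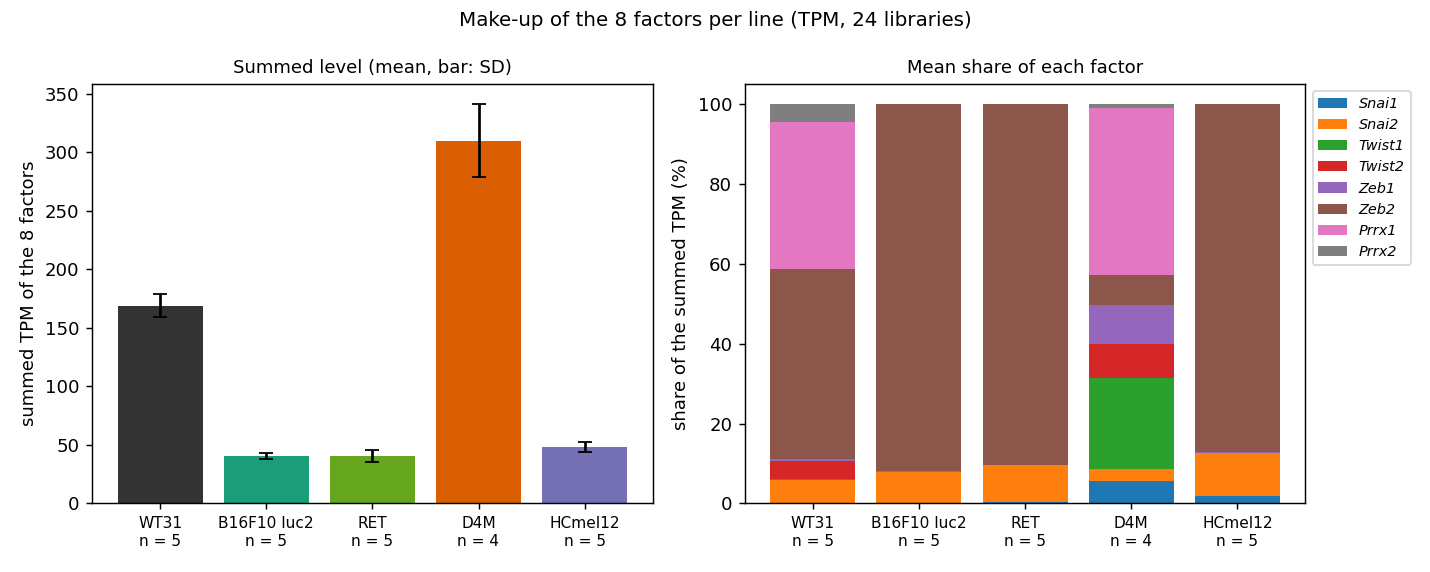
Summed TPM of the 8 factors per line (left, mean with SD) and the mean share of each factor in that sum (right, %), over 5 libraries of a line and 4 of D4M. Zeb2 takes 86.9% to 91.8% in B16F10 luc2, RET and HCmel12, while D4M is divided among all 8 factors.

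Ratios of paired factors were compared between lines within libraries, where depth cancels, by exact two-sided permutation tests of 5 against 5 libraries. The smallest p these can give is 0.0079, or 0.011 after adjustment over 23 comparisons. Lines with 3 or fewer counts of either gene were left out. The log2 ratio of Zeb1 to Zeb2 counts was 0.1 ± 0.07 (SD, n = 5) in D4M and -8.11 ± 0.19 in WT31, -9 ± 1.46 in HCmel12, -9.34 ± 0.43 in B16F10 luc2 and -10.63 ± 1.28 in RET. D4M differed from each of the other lines by the smallest p of the exact test, with all 5 libraries above. The ratio of WT31 was also above those of B16F10 luc2 and RET, whereas WT31 and HCmel12 were not separated (0.89, adjusted p = 0.2, exact permutation), and without HCmel12 replicate 4 they were (1.51, adjusted p = 0.021).

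Of the ratio of Snai1 to Snai2, D4M had 0.43 ± 0.45 and HCmel12 -2.85 ± 0.46, which differed by 3.28 (adjusted p = 0.011, exact permutation, all 5 libraries of D4M above those of HCmel12). Both lines were above WT31 (-8.25 ± 1.61), B16F10 luc2 (-6.16 ± 1.64) and RET (-5.79 ± 1.92), and these 3 lines overlapped. With TPM plus 0.1 in place of counts, WT31 was called lower than B16F10 luc2 (-1.81) and RET (-2), each with an adjusted p of 0.02 (exact permutation). Snai1 averaged 0.041, 0.0559 and 0.139 TPM in WT31, B16F10 luc2 and RET, near or under the added 0.1, while Snai2 was higher in WT31. These calls therefore do not show a difference in Snai1. The ratio of Twist1 to Snai2 was 2.48 ± 0.35 in D4M and -5.36 ± 0.75 in WT31, and that of Twist1 to Twist2 was 1.75 ± 0.11 and -4.32 ± 0.63. The ratio of Prrx1 to Prrx2 was 7.28 ± 0.88 in D4M and 4.92 ± 0.38 in WT31. The difference between WT31 and D4M had an adjusted p of 0.011 (exact permutation) for each of these 3 ratios.

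**Figure D5:**
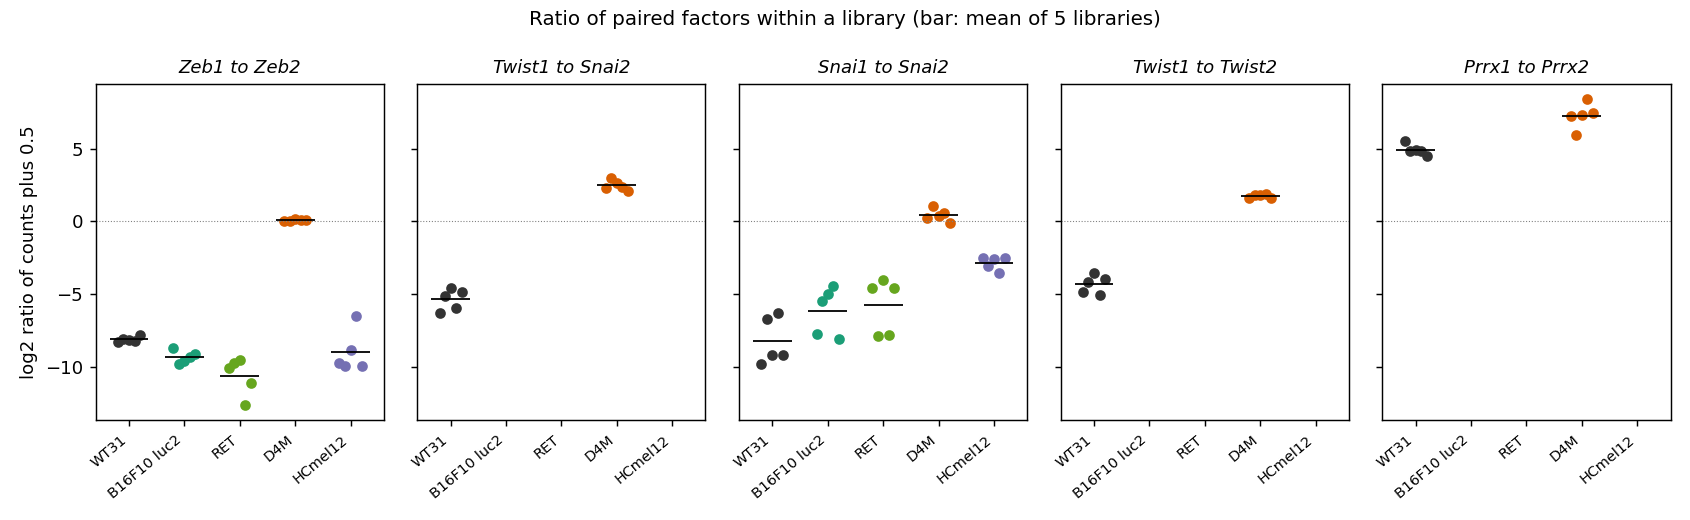
Log2 ratio of counts plus 0.5 for 5 pairs of factors in each library, with the mean of a line as a bar and lines with 3 or fewer counts of either gene left empty. The 5 D4M libraries are above all others for each pair drawn, and HCmel12 replicate 4 stands above its line for Zeb1 to Zeb2.

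The genes whose log2 CPM was most like that of a factor over the 25 libraries were listed by Pearson's r, as a description, since the 5 libraries of a line share most of their pattern. Twist1 was most like Mgp (r = 0.9979), which encodes matrix Gla protein, with 24.3 CPM in D4M, 0.257 in WT31 and 0 in the other lines. Twist2 was most like Hs6st2 (r = 0.9965) and Flrt2 (r = 0.9961), and Flrt2 had 79 CPM in D4M and 26.3 CPM in WT31. Prrx1 was most like Xkr6 (r = 0.9883) and Lpar1 (r = 0.9865), a receptor of lysophosphatidic acid with 112 CPM in D4M and 25.4 CPM in WT31. Prrx2 was most like Pthlh (r = 0.9833), parathyroid hormone-like hormone, with 86.7 CPM in WT31 and 25.8 CPM in D4M. Zeb1 was most like Xpr1 (r = 0.9767), Snai1 like Rai14 (r = 0.9527), Snai2 like Elk3 (r = 0.9559) and Zeb2 like Arnt (r = 0.9603). Elk3, an ETS factor, followed the order of Snai2 with 218 CPM in D4M, 151 in WT31, 86.1 in HCmel12, 52.1 in RET and 34.9 in B16F10 luc2.

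Genes on which these factors act were described as lists. Of 28 epithelial genes listed as repressed by EMT factors, 10 passed the filter, and 2 of these, Tjp3 and Llgl2, were lower in D4M than in each other line, while Pkp1 was higher, where 15.7% of all genes were lower and 20% higher. Pkp1, a desmosomal plakophilin, had 45.3 ± 10.2 CPM (SD, n = 5) in D4M and at most 0.0656 CPM in the other lines. Cdh1, E-cadherin, was at 0.125 ± 0.106 CPM in D4M, 0.361 ± 0.166 in B16F10 luc2, 0.502 ± 0.164 in WT31 and 1.14 ± 0.302 in RET, and was higher in HCmel12 than in each other line (7.39 ± 4.68 CPM). Patj, a polarity protein, was at 0.306 CPM in D4M and 0.244 CPM in WT31, but at 128, 68.4 and 5.21 CPM in B16F10 luc2, RET and HCmel12. Cdh3, P-cadherin, was higher in WT31 than in each other line (17.9 ± 5.97 CPM against at most 0.0407). The median log2 difference of the 10 genes was 0.57 for WT31 against D4M, where that of all genes was -0.01, and -1.78 for D4M against HCmel12, where that of all genes was 0. The genes went both ways (5 higher and 3 lower in WT31 than in D4M, 2 higher and 7 lower in D4M than in HCmel12). Some, such as Pkp1 and Cdh3, were near 0 in every line but the one in which they were high, so that these medians do not measure repression.

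Of 30 mesenchymal effector genes, 26 were tested and 21 were higher in D4M than in each other line, where 20% of all genes were. Of the 10 fibroblast markers above, 9 belong to this list. The median log2 difference of the 26 genes was -4.5 for WT31 against D4M, -3.71 for B16F10 luc2, -3.13 for RET, and 4.43 for D4M against HCmel12, with medians of all genes between -0.01 and 0.01. Col3a1, a fibrillar collagen, had 425 ± 160 CPM in D4M and at most 0.256 CPM in the other lines, Mmp3, a matrix metalloproteinase, 178 ± 20.1 CPM against at most 0.0165, and Tnc, tenascin C, 301 ± 26.8 CPM against 7.74 ± 5.73 in WT31 and less in the others. Vim, vimentin, was abundant in all lines (900 to 6590 CPM) and highest in D4M. Cdh2, N-cadherin, was at 334 ± 26.5 CPM in D4M, 242 ± 33 in HCmel12 and 159 to 200 CPM in HIM-melanoma, and Fn1, fibronectin, at 1910 ± 271, 1410 ± 296 and 80.8 to 273 CPM. Both were lower in HIM-melanoma in all 6 comparisons, as were 6.4% of the genes tested. Tagln, of the same list, was higher in HIM-melanoma in all 6, as were 6.53% of the genes tested. Cdh11, a mesenchymal cadherin (13 ± 3.95 CPM), was higher in WT31 than in each other line, and so was Mmp2, a matrix metalloproteinase.

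All 28 corepressors and chromatin partners on the list were tested. Ctbp2, Kdm1a, Sin3a and Suv39h1 were higher in D4M than in each other line after TMM scaling, a share under the 20% of all genes, and with library size alone these calls were lost (Kdm1a, a histone demethylase, was at 86.3 CPM in D4M and 91.8 CPM in RET). The LIM proteins Ajuba (23 ± 2.88 CPM) and Wtip (12.2 ± 3.34 CPM) were the 2 genes lower in D4M than in each other line, as were 15.7% of all genes. Ctbp1 and Ctbp2, corepressors of the ZEB factors, were at 184 to 255 CPM and 72.2 to 85.8 CPM, with ranges of line means of 0.39 and 0.45 on the log2 scale. Hdac2, a histone deacetylase, was at 244 ± 14.1 CPM in B16F10 luc2 and 83.5 ± 9.17 CPM in HCmel12. Of 7 tested helix-loop-helix partners of the Twist factors and their Id inhibitors, Tcf4 and Tcf3 were higher in D4M than in each other line, against 20% of all genes, and neither with a limit of 1 on the log2 difference. Tcf4 was at 290 ± 16.1 CPM in D4M, 196 ± 13.3 CPM in WT31 and 30.9 to 69.4 CPM in the other lines, and Tcf12 was at 150 to 365 CPM. Id2, which sequesters such partners, was lower in D4M than in each other line (6 ± 2.66 CPM against 55.6 to 351 CPM). Id4 was at 30.8 ± 8.74 CPM in WT31 and 11.4 ± 1.26 CPM in D4M, and Id1 at 36.4 ± 8.77 and 32.5 ± 11 CPM.

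Of 23 tested genes for turnover of the factors, 9 were higher in D4M than in each other line, against 20% of all genes, and 5 when scaled by library size alone. Btrc, a subunit of a ubiquitin ligase, was lower, as were 15.7% of all genes. Pak1, a kinase that phosphorylates Snai1, had 42.8 ± 4.22 CPM in D4M and at most 0.205 CPM elsewhere, and Prkd1, protein kinase D, had 33.6 ± 3.6 CPM in WT31, 12.3 ± 2.2 in HCmel12, 8.17 ± 1.13 in D4M and 0 in B16F10 luc2 and RET. Of 16 tested paralogs and other EMT factors, 8 were higher and 4 lower in D4M, against 20% and 15.7% of all genes. Alx1, Shox2, Foxc1 and Tbx2 were those lower in D4M. Foxc2 (41.3 ± 9.29 CPM) and Tbx3 (71.7 ± 10.9 CPM) were among the higher, with at most 0.534 and 9.61 CPM elsewhere. Alx1, a homeodomain relative of the Prrx factors, had 10 counts in D4M replicate 1 and at most 1 in the others of that line, and 40.4 to 56.1 CPM in the other lines. Snai3 did not pass the filter and was at most at 0.0567 CPM as a line mean. Of 22 tested genes for inducing signals, 9 were higher and 1, Ctnnb1, lower in D4M than in each other line, against the same shares of all genes. Among the higher were Bmp2 (508 ± 52.6 CPM, and 14.3 ± 3.26 in WT31) and Fgf2 (45.9 ± 4.84 CPM). Hgf was higher in HCmel12 than in each other line (96.4 ± 14.4 CPM), the line from an HGF-CDK4(R24C) mouse.

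Of 20 melanocyte lineage genes, 18 were lower in D4M than in each other line, and of 18 genes of dedifferentiated melanoma 14 were higher, against 15.7% of all genes lower and 20% higher, and the 10 markers used to check the label are among the former. The median log2 difference of the melanocyte list was 12.09 for WT31 against D4M and -8.48 for D4M against HCmel12. Mitf was at 5.74 ± 0.396 CPM in D4M and 437 to 693 CPM in the other lines, and Sox10 at 566 to 943 CPM in the other lines. In D4M, Sox10 was at 1.86 CPM in replicate 1 and at 0.119, 0.0399, 0 and 0.467 CPM in replicates 2 to 5. Fosl1 was at 204 ± 28.2 CPM in D4M and at most 0.223 CPM elsewhere, and Tgfbi at 286 ± 63.2 CPM and 5.8 ± 1.3 CPM in WT31. WT31 had 4190 ± 398 CPM of Tyr and 943 ± 69.2 CPM of Sox10.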

How the data were processed

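Per the study's methods and the submitters' processing notes, the authors trimmed reads with Trim Galore (0.6.4), assigned them to GRCm38.p6 transcripts with kallisto and deposited estimated counts per gene, not normalized, and TPM, scaled by transcript length and total. TPM were analysed for 24 libraries, without D4M replicate 1. The 8 members and all lists were chosen with earlier results of these data known.

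Counts were filtered (filterByExpr, edgeR 4.0.16), which kept 15247 of 55385 genes, scaled by TMM and fitted with voom and limma (3.58.1, R 4.3.3) with 5 line means over 25 libraries. P-values were adjusted over all tested genes per comparison (Benjamini-Hochberg, threshold 0.05). CPM use library totals. With library size alone, the median of all genes moved by 0.15 to 0.23 (log2) for WT31, B16F10 luc2 and RET against D4M and by -0.18 for D4M against HCmel12. A line at 0 counts was set to a floor of 3 counts over its libraries. Ratios of summed counts have exact 95% intervals, and both cover counting error only. Neither the floor nor these ratios use TMM scaling or a mean of log values, so they can differ from the fitted log2 differences. Within-library ratios used counts plus 0.5, and leaving out lines with 3 or fewer counts of either gene was decided after seeing the data. Loci and shared 31-base sequences came from GENCODE M21 (GRCm38). Replicates differed by more than sampling noise (chi-square per degree of freedom 5.95 to 78).

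Other genes named were, by rule, from the 3 most like each member, the 3 with the widest range of line means per list, and Cdh1, Cdh2, Vim, Fn1, Mitf, Sox10, Ctbp1, Ctbp2, Tcf4, Tcf12 and Snai3. Tjp3, Llgl2, Mmp2, Cdh11, Tagln, Kdm1a, Sin3a, Suv39h1, Tcf3, Btrc, Shox2, Foxc1, Tbx2, Ctnnb1, Dcn, Thy1, Dpt, the antisense genes and the markers given as at 0 were named after their values were seen. Scaling, filter, test, unit, fold limit and left-out libraries were varied, and the procedure was tested on simulated data.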

Additional observations from a re-analysis of the deposited data

Results flagged for a closer look

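Libraries that stood apart from the other replicates of a line were found for 4 factors, by the share of a line's range taken up by the gap to the nearest library (Dixon's 95% limit). The test covered 52 sets of values (CPM and TPM of a factor in a line with at least 15 counts over its libraries), and chance alone marks about 1 in 20 of them. Snai2 in WT31 replicate 1 was 17.8 CPM, with the next library at 12.1, and 14.3 TPM, with the next at 9.46. Zeb2 in the same library was 388 CPM, with the next at 309. Zeb1 in HCmel12 replicate 4 was 1.64 CPM, with the next at 0.367. Zeb1 in WT31 replicate 5 was 1.21 TPM, with the next at 0.468, while its 1.32 CPM, also the highest of the line, was close to the next at 1.23. Prrx1 in D4M replicate 5 was 157 TPM, with the next of 4 libraries at 121.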

How the results depend on the processing

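Of 2214 repeats of the differences between lines (61 differences in which either line had a mean of at least 10 counts, under up to 37 settings), 2189 kept their direction and their side of the threshold, 15 lost significance, 6 gained it and 4 turned. The turned ones were Snai2 in WT31 against D4M with TPM (0.05 with either pseudocount), where it was not called, and Zeb1 in B16F10 luc2 against HCmel12 (0.01 without HCmel12 replicate 4, also when D4M replicate 1 was left out with it; range -0.78 to 0.01 over single omissions). Snai2 in WT31 against D4M was called with DESeq2's size factors (-0.28, adjusted p = 0.044) and without WT31 replicate 1 (-0.38, adjusted p = 0.0044) or D4M replicate 2 or 3 (-0.31). The number of factors called between B16F10 luc2 and RET was 1, and it was 0 without a filter, with at least 10 counts in every library and with TPM, 2 with the replicate block, and 0 to 2 with single libraries left out. Without a filter 60 of the 80 calls over all pairs were made, against 62. With at least 10 counts in every library only Snai2 and Zeb2 could be tested, and 17 calls were made in all, with 1 for WT31 against D4M and 2 for every pair other than this and B16F10 luc2 against RET. TPM with a pseudocount of 1, and a limit of 1 on the absolute log2 difference, each gave 2 calls for HCmel12 against B16F10 luc2 and against RET. With that limit Zeb2 was no longer lower in D4M than in each other line, 1 factor (Prrx2) was higher in WT31 than in each other line, and the lists of corepressors, helix-loop-helix partners and turnover genes had 0, 0 and 1 genes higher in D4M, and with library size alone 0 corepressors and 5 turnover genes. The ratio of Snai1 to Snai2 in B16F10 luc2 against RET was not called and ranged from -0.9 to 0.11 over single omissions, and that of Zeb1 to Zeb2 in B16F10 luc2 against HCmel12 from -0.58 to 0.28. The Zeb1 to Zeb2 ratio in B16F10 luc2 against RET (1.28, adjusted p = 0.054, exact permutation) ranged from 0.79 to 1.56, and was called without B16F10 luc2 replicate 2 or RET replicate 3 and with TPM plus 0.1 (0.4). Same-numbered replicates were not alike (mean correlation of deviations 0; 3 of 25 libraries closest to their own number), and the replicate block made 64 calls in all. The cause of these changes was not tested. Depth limits Snai1, Zeb1 and Prrx1 in the lines with few counts.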
